A study of Mus musculus with 6 samples.

Results

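The genes described here encode enzymes and factors that write, read and erase DNA methylation and histone marks. They were chosen as a list of 53 genes, and all probe sets whose platform gene symbol is on that list were taken. Of the 53 genes, 52 were named on the array by 131 probe sets out of 45037, and Suv39h1 is not analysed here. An intensity filter left 50 of them to be tested, through 105 probe sets, among 13187 genes tested in all. The cells are described in the labels as double negative thymocytes sorted by flow cytometry, which are the earliest T lineage cells of the thymus and lack CD4 and CD8. The titles and source fields of the same arrays read whole thymus, and which of these was hybridised is not settled by the labels. The sources used here give no strain, age or sex of the animals. The compared groups were 3 arrays labelled as double knockouts of Egr1 and Egr3 and 3 arrays labelled as wild type, each from 1 animal per the labels. Egr1 and Egr3 are zinc finger transcription factors that respond to receptor signals in early T cells. These groups are called the DKO-labelled and the WT-labelled arrays below, and a log2 change is always DKO-labelled minus WT-labelled.

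DNA methylation is copied onto new DNA strands at the replication fork by Dnmt1, which Uhrf1 guides to half-methylated sites and the remodelling ATPase Hells helps to reach compacted DNA. Dnmt3a and Dnmt3b place new methyl groups, and the TET enzymes oxidise them. Histone deacetylases, sirtuins, Polycomb complexes and H3K9 methyltransferases mostly restrain transcription, while acetyltransferases and several remodellers favour it. In developing T cells many of these proteins hold lineage programmes in place as the cells divide and rearrange their receptor genes.

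Several values of the whole data set bear on what follows. The Egr1 probe set read 1757, 1696 and 1221 on the DKO-labelled arrays and 508, 509 and 455 on the WT-labelled arrays, so it was higher, not lower, in the DKO-labelled group. No source used here places this probe set relative to the disrupted part of Egr1, and if it lies outside, its signal is no check of the labels. The probe sets of Egr3, the other targeted gene, had changes of -0.59 (SE 0.35, limma adjusted p = 0.528) and -0.07 (SE 0.36, limma adjusted p = 0.964), so neither passed. The first read 34.4, 45.8 and 32.9 on the DKO-labelled arrays and 92.2, 83.1 and 30.8 on the WT-labelled arrays. The second read between 12.5 and 55.4 on all 6. Both were dim, so they are a weak check of the labels. WT-labelled replicate 3 stood apart. The summed intensity of 13 granulocyte marker genes was between 20621 and 30042 on the DKO-labelled arrays, against 12336, 27469 and 364 on WT-labelled replicates 1, 2 and 3. The mean log2 value of 23 mitosis genes was between 9.01 and 9.11 on the DKO-labelled arrays, against 9.56, 9.54 and 8.38 on the WT-labelled arrays in the same order. Summed over 5 erythroid markers, intensity was between 328 and 441 on the DKO-labelled arrays. On WT-labelled replicates 1, 2 and 3 it was 338, 72.5 and 3306, with Alas2 at 3142 on replicate 3. For 10 macrophage and dendritic cell markers the sum was between 4463 and 4934 on the DKO-labelled arrays. On WT-labelled replicates 1, 2 and 3 it was 5529, 8075 and 2890. Of 6 mature T cell markers tested, 4 were higher in the DKO-labelled group, and their summed intensity with 1 untested marker was between 5603 and 5787 there, against 1620 to 2055 in the WT-labelled group. Of 8 NK and cytotoxic cell markers 5 were higher, of 9 double negative thymocyte markers 3 were lower, and no granulocyte or erythroid marker passed. Of 8 B cell markers 1 was higher, and of 10 macrophage and dendritic cell markers 1 was higher. Over all genes tested, 4.14% were higher and 2.84% lower. Cd4 read at most 6.08 on any array, under the brightest bacterial control probe set, which read between 19.0 and 29.9. Cd8a read between 68.5 and 85.9 on the DKO-labelled arrays and between 82.9 and 197 on the WT-labelled arrays, and Cd8b1 between 65.9 and 137 on the DKO-labelled arrays and between 70.4 and 119 on the WT-labelled arrays, all above that control. Of 6 thymic stroma markers tested, 0 were higher and 0 lower. Among them Epcam, an epithelial marker, read between 865 and 2890.5 on the DKO-labelled arrays and between 271 and 1784 on the WT-labelled arrays. The other epithelial genes of that list were far dimmer on all 6 arrays. Krt8 read at most 106, Krt5 at most 65.3, Foxn1 at most 27.8 and Psmb11 at most 23.1. The Y-linked gene Eif2s3y read 199, 265 and 186 on the DKO-labelled arrays and 476, 13.2 and 0.625 on the WT-labelled arrays, while the X-inactivation transcript Xist read at least 1439 on all 6. Kdm5d and Uty, also Y-linked, read 144 and 63.7 on WT-labelled replicate 1 and at most 29.5 on the other arrays. Xist and Eif2s3y were both above the bacterial control on the DKO-labelled arrays and WT-labelled replicate 1. Whether each array held RNA of 1 animal, as labelled, was not tested. The part of these differences in the results below was not tested. With bulk RNA, fewer cells of a type and less RNA per cell cannot be told apart.

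Few of the chromatin enzymes passed the test. Under limma with Benjamini-Hochberg adjustment over all genes, 2 of 50 were lower in the DKO-labelled arrays and 0 were higher, which is 4% of the members. The share over all genes tested was 6.98%, with 4.14% higher and 2.84% lower. The genes that fell were Hells and Hdac2. At an unadjusted p under 0.05 there were 9 of 50 members, 18%, against 20.9% of all genes. The groups did not overlap in 10 members, 20%, against 26.1% of all genes. The median log2 change of the members was -0.09, against -0.01 over all genes, and 23 members had a positive and 27 a negative change. By these counts the members did not exceed the background.

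**Figure D1:**
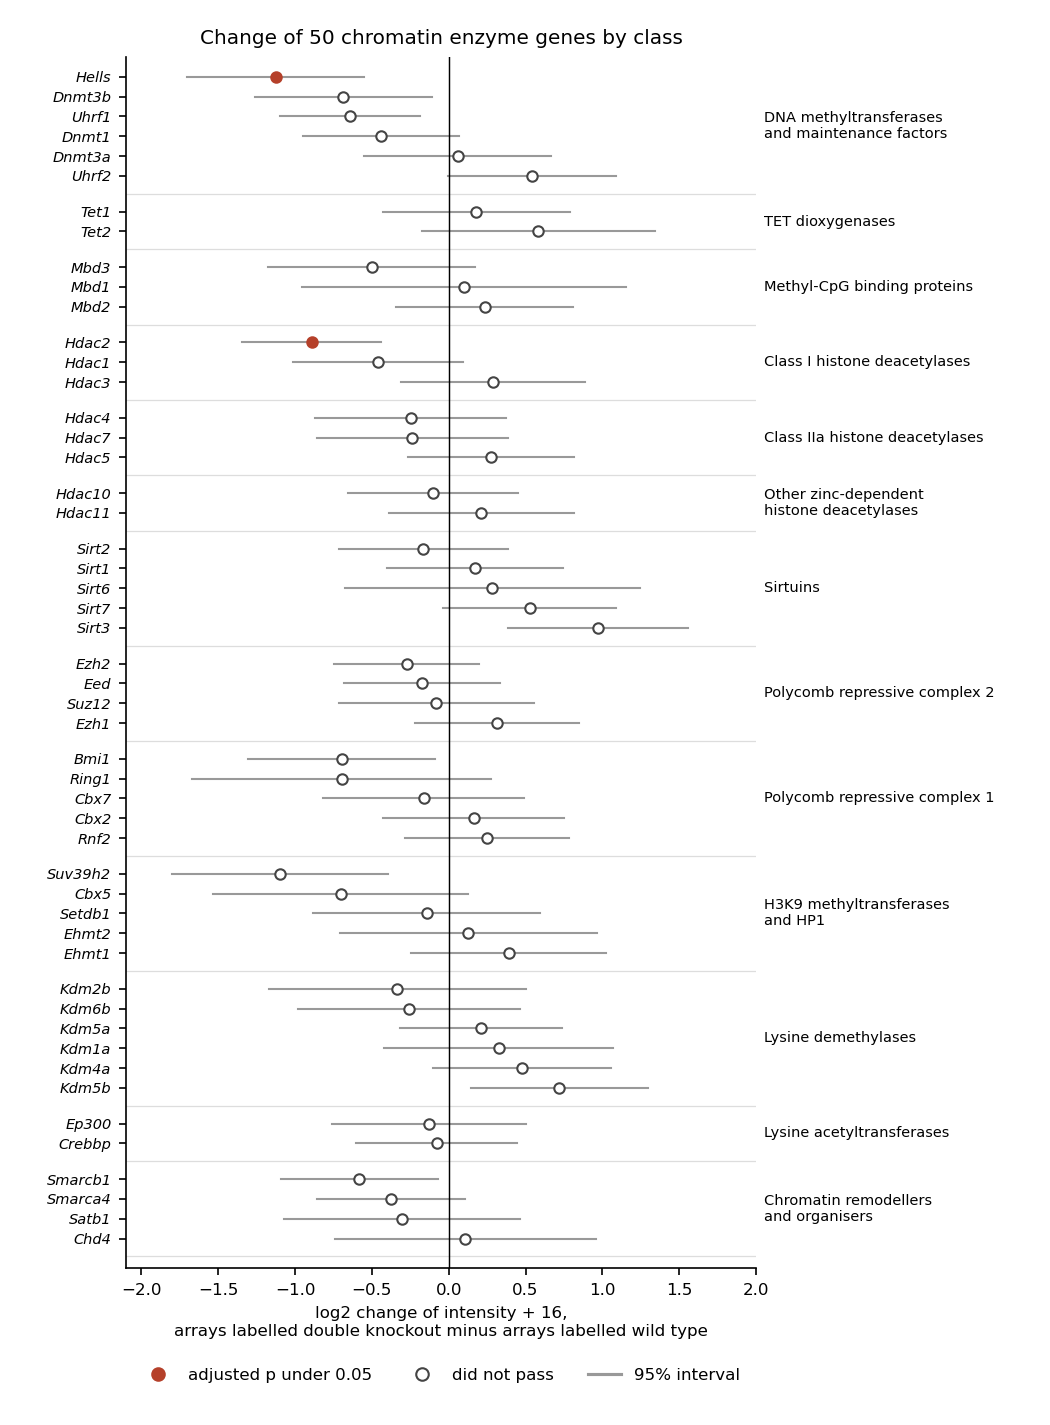
Log2 change of intensity plus 16 (horizontal axis) for the 50 members tested, grouped by enzyme class, with DKO-labelled minus WT-labelled arrays and 95% intervals of the limma fit. Red points, Hells at -1.13 and Hdac2 at -0.89, passed an adjusted p of 0.05, and open points did not.

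Hells, the SNF2-family remodeller needed for normal DNA methylation and lymphoid growth, was 1 of the members that fell. Its brightest probe set read 232, 359.7 and 214 on the DKO-labelled arrays, against 709, 471 and 594 on the WT-labelled arrays. Every DKO-labelled array read lower than every WT-labelled array. The log2 change was -1.13 (SE 0.26, 95% interval -1.70 to -0.55, n = 3 and 3, limma adjusted p = 0.0266). Dimmer probe sets gave -0.41 (SE 0.26) and -0.52 (SE 0.30), and neither passed. The call was lost when any 1 of WT-labelled replicates 1 and 2 or DKO-labelled replicates 1 and 3 was left out (changes between -1.25 and -0.99, limma adjusted p between 0.0556 and 0.151), and the median over its probe sets was -0.41 (adjusted p = 0.357).

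Hdac2, a class I deacetylase of the NuRD and Sin3 corepressor complexes, was the other gene that fell. It read 941, 1125 and 934 on the DKO-labelled arrays and 1919, 1638 and 1983 on the WT-labelled arrays, without overlap. The log2 change was -0.89 (SE 0.21, 95% interval -1.35 to -0.44, n = 3 and 3, limma adjusted p = 0.0265). Its identifier ends in _s_at, the mark of probes shared by several transcripts. A second bright probe set read 697, 545 and 668 on the DKO-labelled arrays and 833, 755 and 1167 on the WT-labelled arrays, again without overlap, with a change of -0.52 (SE 0.25) that did not pass. That probe set stood for the gene when the first kind was left out (limma adjusted p = 0.275). The dimmest probe set of Hdac2 gave -0.00 (SE 0.29). The call of Hdac2 was lost without any 1 array other than WT-labelled replicate 3 (limma adjusted p between 0.0616 and 0.16).

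The sequences before the annotated starts of these genes are shown because they are the members that passed. They are the 250 bases upstream of the start in RefSeq on mouse assembly GRCm38.p6, 5′ to 3′ on the gene's strand, with matches to the searched motifs in capitals. Hells lies on the plus strand at chr19:38930740-38930989, and Hdac2 on the plus strand at chr10:36974294-36974543.
Hells: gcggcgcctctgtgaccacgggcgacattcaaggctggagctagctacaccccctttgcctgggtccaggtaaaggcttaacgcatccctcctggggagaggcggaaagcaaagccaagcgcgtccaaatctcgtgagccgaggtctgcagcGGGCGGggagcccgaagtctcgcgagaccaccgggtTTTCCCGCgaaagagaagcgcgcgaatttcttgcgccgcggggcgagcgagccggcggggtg
Hdac2: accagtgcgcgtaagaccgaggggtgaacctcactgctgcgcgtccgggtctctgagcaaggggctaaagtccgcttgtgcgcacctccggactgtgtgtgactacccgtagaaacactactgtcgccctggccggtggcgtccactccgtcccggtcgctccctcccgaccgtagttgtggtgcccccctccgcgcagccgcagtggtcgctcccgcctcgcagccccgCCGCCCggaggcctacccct
The motifs, searched on both strands, were TTTNNCGC of the E2F cell cycle factors, GCGNGGGCG of the EGR factors, the GGGCGG box of SP1 and KLF factors, and the E box CACGTG. The Hells window held TTTCCCGC, an E2F match, from 62 bases before the start, and a GGGCGG box from 98 bases before it. The Hdac2 window held a GGGCGG box on the minus strand from 20 bases before the start, and no other match.

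Promoter windows were given for 42 of the 50 members tested, with 1 start taken for each gene. The E2F motif was in 5 of them (11.9%), namely those of Hells, Uhrf1, Cbx5, Suz12 and Ep300. Over the promoters of 27025 genes the share was 4.4%. The EGR motif was in 7 of 42 (16.7%), against 4.7% of all promoters, and the members with it were Dnmt3b, Ehmt1, Ep300, Ring1, Rnf2, Sirt1 and Tet1. The GGGCGG box was in 76.2% of the members' windows against 32.9% of all, and the E box in 9.5% against 6.0%. The members' windows had a median GC content of 64.2%, against 52.0% for all, so that motifs rich in G and C are not compared on equal base composition. A match is a description of letters only. None of the 7 members with an EGR match passed the test. Since only 2 of the 50 members passed in all, this count cannot tell members with a match from the others. Dnmt3b alone among the 7 passed in any alternative setting, in 2 of 18.

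Among the DNA methyltransferases and maintenance factors beside Hells, none passed. Dnmt1 read 2850.2, 3009 and 2538 on the DKO-labelled arrays and 4816, 3929 and 2774 on the WT-labelled arrays. WT-labelled replicate 3 lay inside the range of the DKO-labelled arrays. The change was -0.44 (SE 0.23, 95% interval -0.95 to 0.07, limma adjusted p = 0.316), and its other probe sets gave -0.28 (SE 0.22) and -0.71 (SE 0.25). Without WT-labelled replicate 3 the change of Dnmt1 was -0.66 and passed (limma adjusted p = 0.0326).

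Uhrf1, the reader of half-methylated DNA, read 3516, 3109 and 2644 on the DKO-labelled arrays, against 4139, 4556 and 5642 on the WT-labelled arrays. The groups did not overlap, yet the change of -0.64 (SE 0.21, limma adjusted p = 0.0962) missed the threshold, and a dim probe set gave -0.29 (SE 0.32). Its relative Uhrf2, which does not replace it in maintenance methylation, lay the other way. It read 209, 239 and 178 on the DKO-labelled arrays and 106, 143 and 162 on the WT-labelled arrays, with a change of 0.54 (SE 0.25, limma adjusted p = 0.24).

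The de novo methyltransferase Dnmt3b read 514, 516 and 624 on the DKO-labelled arrays and 1140.4, 937 and 641 on the WT-labelled arrays, and the change was -0.69 (SE 0.26, limma adjusted p = 0.159). Its lowest WT-labelled value, on replicate 3, was close to the highest DKO-labelled one. Without that array the change was -0.92 and passed (limma adjusted p = 0.018). A dimmer Dnmt3b probe set gave 0.03 (SE 0.27). Dnmt3a, the other de novo enzyme, depended on the probe set. Its brightest gave 0.06 (SE 0.28, limma adjusted p = 0.933), while 4 dimmer ones gave between -0.83 and -0.38. The one at -0.83 (SE 0.22) read 99.0, 98.2 and 92.4 on the DKO-labelled arrays and 188, 168 and 189.8 on the WT-labelled arrays, and had a limma adjusted p of 0.0566 over all probe sets.

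**Figure D2:**
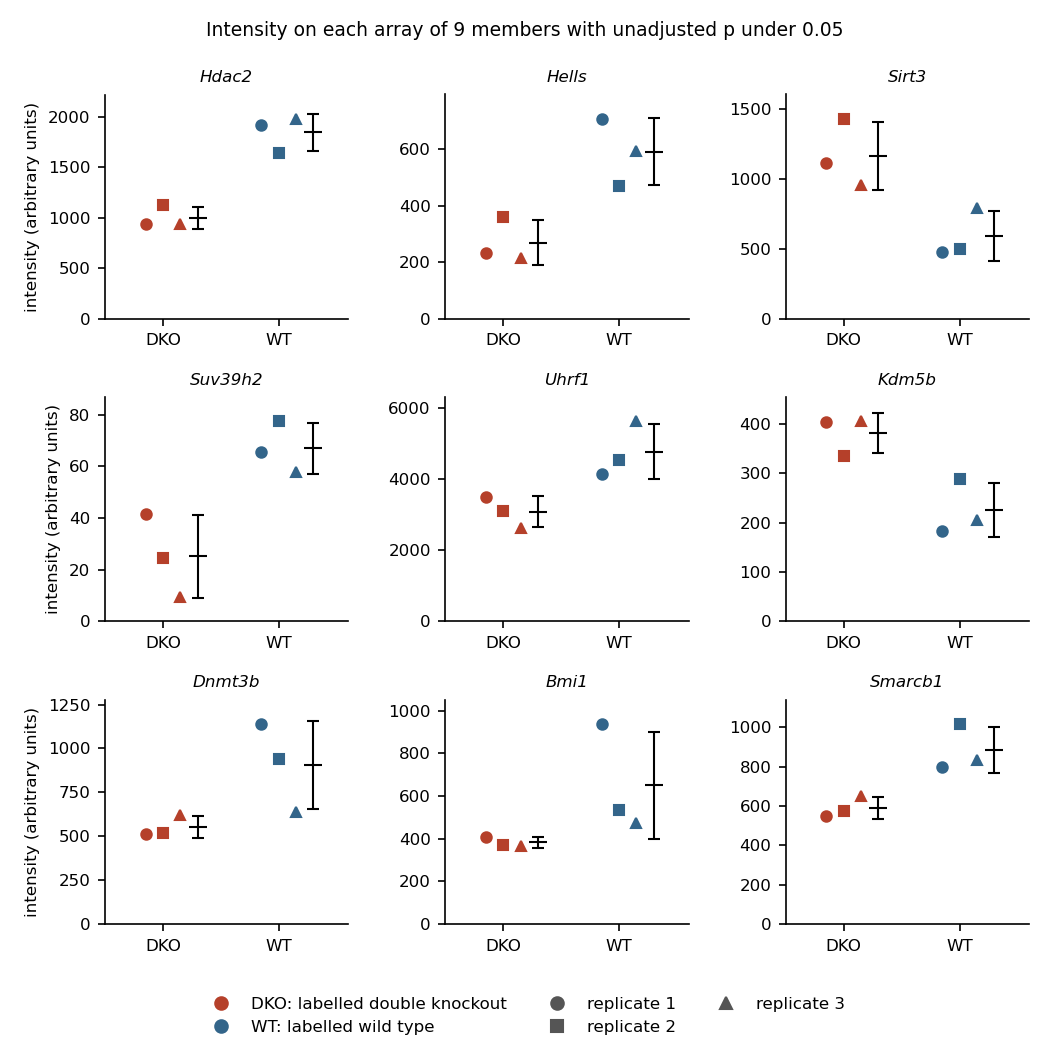
Intensity in arbitrary units (vertical axis, from 0) on each array for the 9 members with an unadjusted p under 0.05, with DKO-labelled arrays at the left of each panel and WT-labelled arrays at the right. Bars are the mean and SD of 3 arrays. The groups did not overlap in any of the 9, of which Hdac2 and Hells passed the adjusted test.

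No eraser or reader of DNA methylation passed. Tet1 and Tet2, which oxidise methylated cytosine, had changes of 0.18 (SE 0.28) and 0.58 (SE 0.34). A dimmer Tet1 probe set lay the other way at -0.75 (SE 0.30), and did not pass. Tet2 read 103, 115 and 38.9 on the DKO-labelled arrays and 32.7, 53.8 and 55.5 on the WT-labelled arrays, with overlap. Tet3 was under the filter, at no more than 12.2 on any array. The methyl-CpG binding proteins Mbd1 and Mbd2 had changes of 0.10 (SE 0.48) and 0.24 (SE 0.26), and the NuRD subunit Mbd3 of -0.50 (SE 0.31, 95% interval -1.17 to 0.17). A dimmer Mbd2 probe set gave 0.77 (SE 0.29), without overlap, and did not pass.

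The remaining zinc-dependent deacetylases did not pass. Hdac1, the close relative of Hdac2, read 1243, 1034 and 1824 on the DKO-labelled arrays and 1761, 1872 and 1803 on the WT-labelled arrays. DKO-labelled replicate 3 lay among the WT-labelled arrays, and the change was -0.46 (SE 0.25, 95% interval -1.01 to 0.09, limma adjusted p = 0.336). Hdac3, the catalytic subunit of the NCoR complex, had a change of 0.29 (SE 0.27). The signal-regulated class IIa enzymes Hdac4, Hdac5 and Hdac7 had changes of -0.25, 0.28 and -0.24, and Hdac9 was under the filter at no more than 19.9 on any array. Hdac10 had a change of -0.10 (SE 0.25) and Hdac11 of 0.21 (SE 0.27). A dimmer Hdac11 probe set gave 0.57 (SE 0.26), without overlap, and did not pass.

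Of the sirtuins, the NAD-dependent deacylases, Sirt3 lay nearest to the threshold. Sirt3, a mitochondrial deacetylase, read 1112, 1432 and 955 on the DKO-labelled arrays and 474, 496 and 795 on the WT-labelled arrays. All DKO-labelled values were above all WT-labelled ones. The change was 0.97 (SE 0.27, 95% interval 0.38 to 1.56, limma adjusted p = 0.0527), and it passed in 8 of 18 alternative settings. The limma adjusted p was 0.00595 without WT-labelled replicate 3, and 0.0493 when p-values of the fit over probe sets were adjusted over genes, the form computed first. By that form 1 member was higher and 2 lower, against 7.47% of all genes, with 3.06% lower. Sirt7, a nucleolar sirtuin, had a change of 0.53 (SE 0.26, limma adjusted p = 0.276). Sirt1, Sirt2 and Sirt6 had changes of 0.17, -0.17 and 0.28, and Sirt6 was dim, at 48.9 or less.

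The Polycomb genes showed no called change. Polycomb repressive complex 2 methylates histone H3 through Ezh2 or Ezh1, with Eed and Suz12 as core subunits. Ezh2 read 1324, 1565 and 1322 on the DKO-labelled arrays and 1834, 1797 and 1420.0 on the WT-labelled arrays, with a change of -0.27 (SE 0.21, 95% interval -0.75 to 0.20). Ezh1 read 330.4, 287 and 325 on the DKO-labelled arrays and 202, 260.1 and 283 on the WT-labelled arrays, with a change of 0.31 (SE 0.24, 95% interval -0.22 to 0.85). Eed and Suz12 had changes of -0.17 (SE 0.23) and -0.08 (SE 0.29).

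In Polycomb repressive complex 1, Bmi1, a subunit that supports progenitor self-renewal, read 409.6, 372 and 365 on the DKO-labelled arrays and 939, 536 and 475 on the WT-labelled arrays. The groups did not overlap, and the high value of WT-labelled replicate 1 widened the spread. The change was -0.70 (SE 0.28, limma adjusted p = 0.174), and a second probe set gave -0.50 (SE 0.27), also without overlap. The ubiquitin ligase subunits Ring1 and Rnf2 had changes of -0.70 (SE 0.44) and 0.25 (SE 0.24). The chromobox subunits Cbx2 and Cbx7 had changes of 0.16 and -0.16, and Cbx7 was above the brightest bacterial control on 1 of 6 arrays.

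The H3K9 methylation system held a change at 1 of its probe sets. Suv39h2, a methyltransferase of constitutive heterochromatin, was dim, at 41.6, 24.4 and 9.54 on the DKO-labelled arrays and 65.4, 77.5 and 57.9 on the WT-labelled arrays. The groups did not overlap, and the change was -1.10 (SE 0.32, 95% interval -1.80 to -0.40, limma adjusted p = 0.0654). It passed without WT-labelled replicate 3 (limma adjusted p = 0.0409). Its other tested probe sets, dimmer still, gave -0.18 (SE 0.46) and -0.58 (SE 0.34), both with overlap, and neither passed. With the median over the probe sets of each gene, Hells and Hdac2 no longer passed, while Suv39h2 (-1.0004, limma adjusted p = 0.0341) and Cbx5 (-0.93, limma adjusted p = 0.0479) were lower. The reader Cbx5, which is the heterochromatin protein HP1 alpha, had a change of -0.70 (SE 0.38, limma adjusted p = 0.329) on its brightest probe set, where WT-labelled replicate 3, at 202, lay inside the DKO-labelled range of 168 to 332.

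A dimmer Cbx5 probe set read 71.0, 89.1 and 100.3 on the DKO-labelled arrays and 271, 297 and 167 on the WT-labelled arrays. It fell by 1.34 on the log2 scale (SE 0.28, limma adjusted p = 0.0181 over all probe sets), 1 of 3 member probe sets that did so among 105. The share of probe sets that passed in all was 5.03%, with 2.91% higher and 2.11% lower. The Cbx5 call was lost without WT-labelled replicate 1 or 2 or DKO-labelled replicate 1 or 2 (limma adjusted p between 0.0644 and 0.121). The other tested Cbx5 probe sets gave -0.52 (SE 0.26) and -0.04 (SE 0.43), both with overlap, and neither passed. The other H3K9 methyltransferases tested, Ehmt1, Ehmt2 and Setdb1, had changes of 0.39 (SE 0.29), 0.13 (SE 0.38) and -0.14 (SE 0.33).

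No lysine demethylase, acetyltransferase or remodeller passed. Kdm5b, which removes methyl groups of active promoters, read 404, 335 and 406 on the DKO-labelled arrays and 183, 288 and 205 on the WT-labelled arrays, without overlap, and its change was 0.72 (SE 0.26, limma adjusted p = 0.137). Dimmer Kdm5b probe sets lay on both sides of 0, at -0.76 (SE 0.33), 0.97 (SE 0.40) and -0.24 (SE 0.38), and none passed. The median over the probe sets was -0.11, so Kdm5b has no settled direction. Kdm4a, Kdm1a and Kdm5a had changes of 0.48, 0.33 and 0.21, and Kdm2b and Kdm6b of -0.33 and -0.26. The acetyltransferases Crebbp and Ep300 had changes of -0.08 (95% interval -0.60 to 0.45) and -0.13 (95% interval -0.76 to 0.50).

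Smarcb1, a core subunit of the SWI/SNF remodeller, read 547, 573 and 653 on the DKO-labelled arrays and 799, 1018 and 833 on the WT-labelled arrays, without overlap. The change was -0.58 (SE 0.23, limma adjusted p = 0.175). Another probe set gave -1.49 (SE 0.43, adjusted p = 0.0698 over all probe sets in limma), with 256, 218 and 524 on the DKO-labelled arrays and 1284, 1232 and 439.8 on the WT-labelled arrays. There WT-labelled replicate 3 lay inside the DKO-labelled range. The SWI/SNF ATPase Smarca4 had a change of -0.37 (SE 0.22) and the NuRD ATPase Chd4 of 0.11 (SE 0.39), with 0.97 (SE 0.29) on a dimmer Chd4 probe set.

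Satb1, a genome organiser of thymocytes, spread widely within the WT-labelled group. It read 1580.5, 1437 and 1942 on the DKO-labelled arrays and 3761, 1729.7 and 1228 on the WT-labelled arrays. The change was -0.30 (SE 0.35), and another bright probe set gave 0.49 (SE 0.26). The remaining tested Satb1 probe sets were dimmer and gave -0.20 (SE 0.44), -0.12 (SE 0.41) and -0.37 (SE 0.30). None passed.

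**Figure D3:**
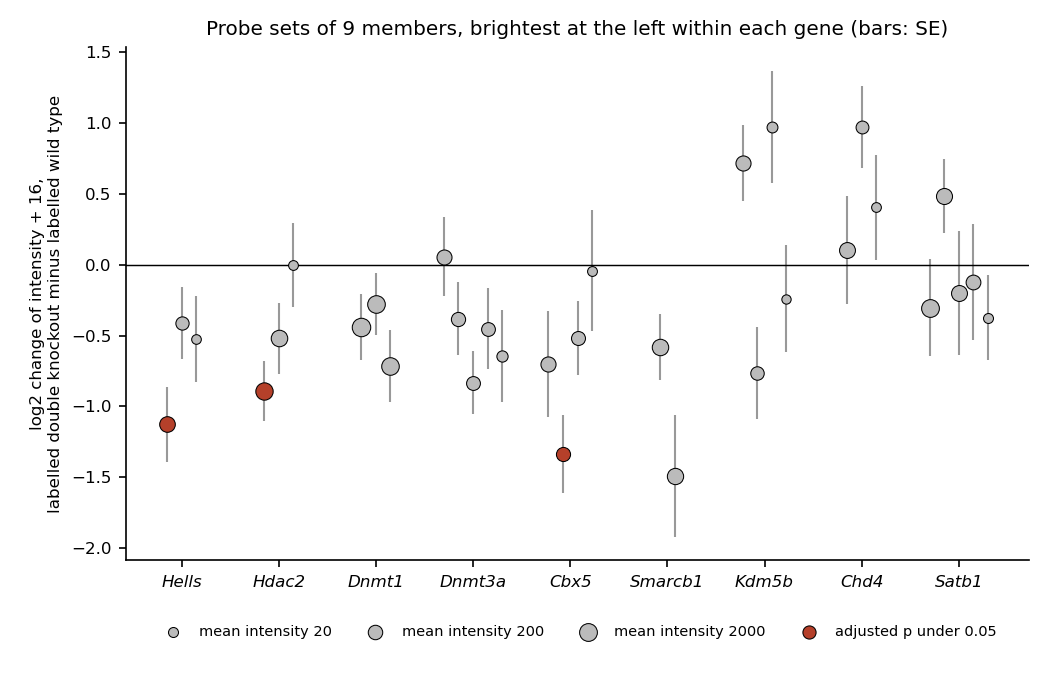
Log2 change of intensity plus 16 with its SE (vertical axis) for each tested probe set of 9 members, chosen after their values were seen, with larger points for brighter probe sets and the brightest at the left within each gene. Red points, 1 each of Hells, Hdac2 and Cbx5, passed an adjusted p of 0.05 over all probe sets, and the probe sets of Kdm5b and Satb1 lie on both sides of 0.

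Of the 31 members with more than 1 tested probe set, 14 had changes of both signs. Beside those described above, other probe sets turned the sign for Mbd1 (between -0.80 and -0.04), Hdac4 (0.13), Eed (0.26) and Kdm2b (0.02). Others did so for Suz12 (between 0.02 and 0.41), Kdm5a (-0.29), Kdm6b (0.66), Crebbp (0.48 and 0.62) and Smarca4 (0.33). None of the 14 had a probe set that passed the test.

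Pairs of related genes were compared within arrays, where a common scaling cancels, by the change of their log2 difference. Of 4 pairs planned, 3 could be computed. Uhrf1 minus Uhrf2 was 3.97, 3.61 and 3.78 on the DKO-labelled arrays and 5.09, 4.85 and 4.99 on the WT-labelled arrays, without overlap. The mean difference fell by 1.19 (two-sided exact permutation p = 0.1, which is the smallest that 3 arrays against 3 allow, and 0.2 adjusted over the 3 pairs). Ezh2 minus Ezh1 averaged 2.10 ± 0.245 on the DKO-labelled arrays and 2.69 ± 0.413 on the WT-labelled arrays (SD, n = 3 each, exact permutation p = 0.2). Dnmt1 minus Dnmt3a averaged 3.20 ± 0.345 on the DKO-labelled arrays and 3.69 ± 0.424 on the WT-labelled arrays (SD, n = 3 each, exact permutation p = 0.2), and with medians over probe sets the change was 0.08. The differences themselves mix the sensitivities of separate probe sets, so only their change between groups is read.

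**Figure D4:**
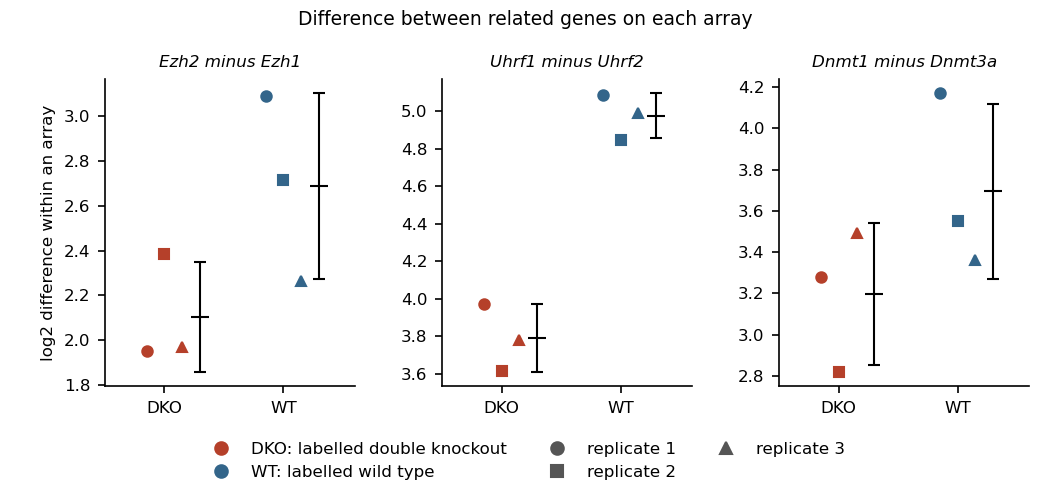
Log2 difference between related genes on each array (vertical axis, not from 0), with DKO-labelled arrays at the left of each panel, WT-labelled arrays at the right, and bars for the mean and SD of 3 arrays. For Uhrf1 minus Uhrf2 the DKO-labelled arrays lie between 3.61 and 3.97, all below the WT-labelled arrays.

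Several of these results moved when WT-labelled replicate 3 was left out. It was the lowest of the 3 WT-labelled arrays in 25 of the 50 members, 16 of the 27 with a negative change and 9 of the 23 with a positive one. The same count over all genes was not made. Without it, 7 members were lower and 1 higher, namely Hells, Hdac2, Dnmt1, Dnmt3b, Bmi1, Cbx5 and Suv39h2 below and Sirt3 above, which is 16% of the 50. The share of all genes that passed also rose, to 14.5%, with 7.22% lower. With array weights 8 members passed as well, 6 lower and 2 higher, against 22.1% of all genes, with 10.8% lower.

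Other chromatin genes were taken from a wider list. Of 101 tested, 2 were higher and 4 lower, beside 4.14% higher and 2.84% lower over all genes, and their median change was -0.06. The count lower was 0 without any 1 of WT-labelled replicates 1 and 2 and DKO-labelled replicates 1 and 2, 2 without DKO-labelled replicate 3 and 14 without WT-labelled replicate 3. The count higher was between 1 and 3 with 1 array left out, and Kdm7a was called in all 18 alternatives. Kdm7a, a demethylase of repressive histone marks, rose by 1.71 (SE 0.30, limma adjusted p = 0.00781), with 511, 743 and 369.5 on the DKO-labelled arrays and 107, 151 and 192 on the WT-labelled arrays. Mta3, a NuRD subunit, rose by 1.32 (SE 0.30). Those that fell were Actl6a, a SWI/SNF actin-like subunit (-0.93, SE 0.20), the acetyltransferase Kat2a (-1.19, SE 0.29), the chromatin assembly factor Chaf1b (-1.15, SE 0.28) and the arginine methyltransferase Prmt1 (-0.79, SE 0.20).

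Replication genes are set beside the members because Dnmt1, Uhrf1 and Hells act around the replication fork. Of 39 tested, 10 were lower in the DKO-labelled arrays and 0 higher, beside 2.84% and 4.14% of all genes, with a median change of -0.69. Leaving out WT-labelled replicate 3 gave 26 lower, and leaving out any other single array between 1 and 3. Of the 6 genes named here, Dut passed in all 18 alternatives and each of the others was lost in some. Pcna, the sliding clamp that also recruits Dnmt1, averaged 3234 ± 160.2 on the DKO-labelled arrays and 5519 ± 92.9 on the WT-labelled arrays (SD, n = 3 each) and fell by 0.79 (SE 0.17, limma adjusted p = 0.0216). The clearest by p were Dut (-1.20, SE 0.21), Mcm3 (-1.04, SE 0.21), Ung (-1.38, SE 0.29) and Mcm2 (-1.53, SE 0.32), with Gins1 at -1.04 (SE 0.23). The mean log2 value of the replication genes was between 9.53 and 9.66 on the DKO-labelled arrays, against 9.99 to 10.48 on the WT-labelled arrays. The part of this difference in the values of Hells, Uhrf1 and Dnmt1 was not tested.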

How the data were processed

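RNA described in the labels as amplified was hybridised to 6 single-colour arrays. The authors deposited linear intensities by probe set, and the mean over the middle 96% of values was 150.0 on each array, so each had been scaled to a common level. No source used here says how probes were summarised, and detection calls were not used. Genes were named through the platform annotation, with symbols updated through RefSeq (GRCm38.p6). Of 45037 probe sets without the 64 controls, 34945 had 1 symbol, 932 several and 9160 none, and probe sets with several named no gene.

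An offset of 16 was added, log2 taken and each array centred on its median, since medians differed by 0.126. Probe sets with a mean under the 40th percentile (log2 4.87) were left out, which left 27022. The offset shrinks log2 changes of dim genes. Groups were compared in R 4.3.3 by limma 3.58.1, using lmFit and a trended eBayes, and Benjamini-Hochberg adjustment at 0.05. A gene was represented by its brightest tested probe set, and the fit and the adjustment were made over the 13187 genes. An earlier version kept the p-values of the fit over probe sets and adjusted them over genes. It was replaced by the refit after its result was seen, and both are reported. The number of arrays, 3 in each group, limits the precision. Pairs of genes were compared by an exact permutation test. All members are accounted for, with full statistics for those that passed and for the pairs; up to 6 genes in each direction of the wider lists are named. The members and lists were chosen with earlier results of these data known. Alternatives covered scaling, offset, filter, variance model, weights for arrays, a block for replicate numbers, leaving out single arrays and the choice of probe set. The alternative with p-values of the probe set fit was added after seeing the data.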

Additional observations from a re-analysis of the deposited data

How the results depend on the processing

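The count of members that passed was small and moved with the arrays used. With 2 lower in the reported fit, it was 6 lower with array weights, 1 lower with probe sets of the _x_at and _s_at kinds avoided, and between 0 and 7 lower with 1 array left out. The count of members higher, 0 as reported, was 1 with values as deposited, with quantile normalization, with an offset of 64, with the filter at the 60th percentile with the median over probe sets and, added after seeing the data, with p-values of the probe set fit adjusted over genes (Sirt3, adjusted p = 0.0493, and 985 genes in all), 2 with array weights, and between 0 and 1 with 1 array left out. Member probe sets, 3 lower and 0 higher as reported, were 10 lower and 3 higher with array weights, and with 1 array left out between 0 and 12 lower and between 0 and 2 higher. Of the wider chromatin list, 2 higher and 4 lower as reported, 5 were higher and 21 lower with array weights, 1 was lower with the median over probe sets, and with 1 array left out between 1 and 3 were higher and between 0 and 14 lower. Replication genes, 10 lower as reported, were 24 lower with array weights and between 1 and 26 lower with 1 array left out. Over all genes, 920 as reported, between 279 and 1903 passed with 1 array left out, 2909 with array weights and 369 with the block. The cause was not tested.

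With the replicate number as a block, 0 members were lower and 0 probe sets were lower, with 1 gene higher and 0 lower on the wider chromatin list and 1 replication gene lower. Correlations of same-numbered arrays' deviations from their group means were -0.0467, -0.133 and -0.291. Deviations within a group of 3 arrays sum to 0, so these correlations cannot settle whether the numbers pair the arrays. The labels tie no pairs.

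Dnmt3a, 0.06 as reported, was -0.074 with array weights, -0.60 with the median over probe sets, and between -0.16 and 0.27 with 1 array left out, with -0.02 without WT-labelled replicate 1. Kdm5b was -0.11 with the median over probe sets, and the Dnmt1 minus Dnmt3a change 0.078. Suv39h1 minus Suv39h2 was not run. Of 50 members tested, 19 turned their sign in at least 1 of the alternatives, and 0 of them passed the test with the turned sign. None of the named genes of the wider lists turned its sign.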
